A study of Rattus norvegicus with 36 samples.

Results

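The comparison concerned injured vocal fold (VF) mucosa of the rat at 14 days post-injury (14 d PI) against the same tissue at 3 days post-injury (3 d PI). It used 10 of the 36 arrays of the series, 5 at each time, chosen by the post-injury day in the array labels, and no control array entered the main contrast. The spread behind each SE and adjusted p was estimated over 15 arrays, these 10 and the 5 of injured mucosa at 60 days (60 d PI). Male Fischer 344 rats had the mucosa of both VFs stripped surgically at an age of 120 d. Tissue was harvested at an age of 134 d in the 14 d PI group and 123 d in the 3 d PI group, so age moved with post-injury time. The microdissected mucosae of 4 rats were pooled for each array, so an array averages 4 animals and the spread between arrays is that between pools. Age-matched rats without injury gave 3 arrays at 14 d (14 d control) and 3 at 3 d (3 d control), and these entered only the comparisons in which they are named. A further 2 arrays of such rats (60 d control) entered the fits of the control change and of its difference from the PI change. The 60 d PI and 60 d control rats were harvested at an age of 180 d. The values were log2 signals of an Affymetrix rat genome array, on which 1 unit is a doubling of the signal.

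The VF mucosa is a stratified squamous epithelium over a pliable lamina propria of fibroblasts, collagen, elastin and hyaluronan, with glands and ciliated epithelium near it and the thyroarytenoid muscle beneath it. A wound in such a tissue is first filled with a provisional matrix of fibronectin, tenascins and versican, entered by neutrophils and macrophages, and closed by dividing and migrating keratinocytes. Fibroblasts then replace this matrix with cross-linked collagen, while muscle fibers that were damaged regenerate from satellite cells through embryonic and neonatal forms of the contractile proteins.

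Of 14217 genes, 4349 differed between 14 d PI and 3 d PI (30.6% of the genes tested), with calls made in limma wherever p, after adjustment by Benjamini and Hochberg, stayed under 0.05. With the spread taken from the 10 compared arrays alone, 5427 genes were called. At 14 d PI, 2001 genes were higher (14.1%) and 2348 were lower (16.5%). The change was at least 2-fold for 697 called genes (4.90%), 290 of them higher and 407 lower at 14 d PI. Changes of at least 8-fold were found for 2 called genes that were higher and 8 that were lower. For 4002 genes (28.1%), the 5 arrays of one group lay entirely above or below the 5 of the other. The median gene changed by -0.02 on the log2 scale, and the median standard error (SE) of a gene's change was 0.11. In mucosa without injury no gene was called between 14 d control and 3 d control (0%). The change in PI mucosa differed from that in control mucosa for 1139 genes (8.01%).

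The first principal component of the 10 arrays held 62.4% of the variance and separated 14 d PI from 3 d PI arrays. The second held 16.9% and set 3 d PI replicate 5 apart from all others. This array deviated from its group mean by 0.343 (root mean square over genes), against 0.143 to 0.176 for the other 3 d PI arrays, and 14 d PI replicate 4 deviated by 0.231, against 0.143 to 0.156 for the other 14 d PI arrays. Without 3 d PI replicate 5, 4520 genes were called, and without both of these arrays 3961. The arrays held signal of the tissues named in the labels and of neighbouring ones. The basal keratins Krt5 and Krt14 lay between 12.78 and 13.78 and the fibroblast collagens Col1a1, Col1a2 and Col3a1 between 12.52 and 14.54. The gland product Bpifa1 lay between 14.54 and 14.62, and the muscle enzyme Ckm between 12.77 and 14.46. The thyroid gene Tg (5.33 to 5.56) and the fat cell gene Adipoq (5.53 to 5.81) stayed below the 25th percentile of every array, which was 6.53 to 6.59. In pooled tissue, fewer cells of a type and less RNA per cell cannot be told apart.

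The largest fall was that of Tnc, which encodes tenascin-C, a glycoprotein of provisional matrix. Its signals were 8.48, 8.30, 8.58, 8.20 and 8.77 on the 14 d PI arrays, against 13.37, 13.30, 13.37, 13.34 and 13.51 on the 3 d PI arrays. The 3 d PI arrays lay close to one another and far above all 14 d PI arrays, which gave a signal 30.1-fold lower at 14 d PI (log2 change -4.91, SE 0.16, adjusted p = 2.74e-11). Tnn, the related tenascin-N, had signals of 4.76, 5.16, 5.34, 4.42 and 6.04 at 14 d PI, against 9.74, 10.28, 9.91, 10.01 and 9.80 at 3 d PI. It was 28-fold lower at 14 d PI (log2 change -4.81, adjusted p = 8.01e-09), with 14 d PI replicate 5 the highest of its group. Lrrc15, a membrane protein of activated fibroblasts, had signals of 6.29, 6.07, 6.11, 6.06 and 6.36 at 14 d PI, against 9.41, 9.55, 9.50, 9.08 and 9.60 at 3 d PI. The groups did not overlap, and its signal was 9.52-fold lower at 14 d PI (log2 change -3.25, adjusted p = 2.74e-11).

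**Figure D1:**
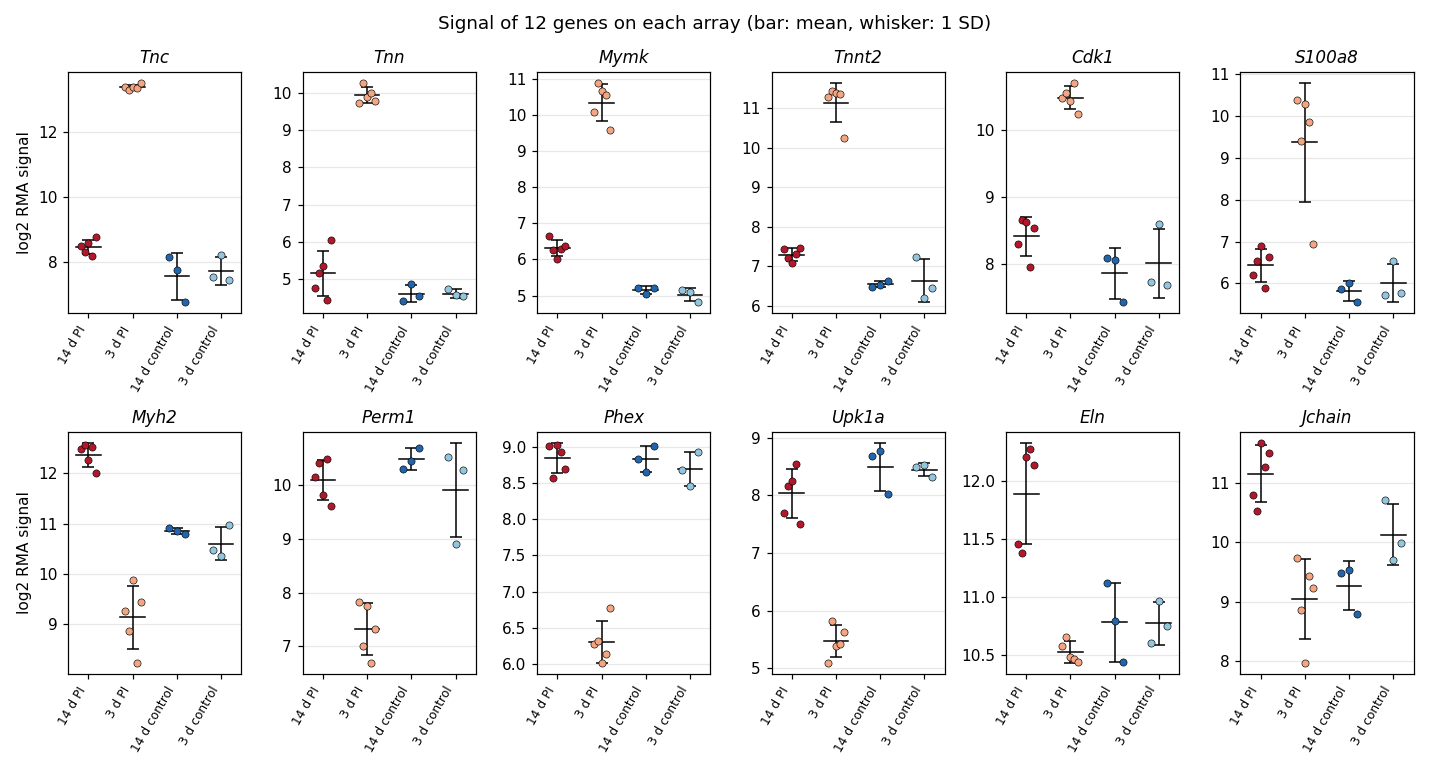
Log2 RMA signal (vertical axes, each panel with its own range) of 12 genes on the arrays of 14 d PI (5), 3 d PI (5), 14 d control (3) and 3 d control (3) mucosa. Points are arrays, the horizontal bar is the group mean and the whisker 1 SD. Tnc lay between 8.20 and 8.77 on the 14 d PI arrays and between 13.30 and 13.51 on the 3 d PI arrays, and Myh2 between 12 and 12.57 against 8.24 and 9.89.

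Tnc and Tnn headed a list of provisional matrix and matricellular proteins in which 16 of 17 measured genes fell and none rose, with a median log2 change of -1.43, beside 16.5% of all genes that fell. Ccn5 was the exception, with a log2 change of 0.22 that was not called (exceptions to a list were named after their values were seen). The fall covered Tnfaip6, a hyaluronan-binding protein (log2 change -2.28, adjusted p = 2.28e-06), and Spp1, the cytokine osteopontin (-1.94, adjusted p = 0.000264). All 16 remained called, each lower, without any single array. The mean level of the list was 9.74 to 10.07 on the 14 d PI arrays and 11.50 to 11.66 on the 3 d PI arrays. In control mucosa it was 9.56 to 9.71 at 14 d and 9.55 to 9.98 at 3 d, so 3 of the 14 d PI arrays lay within the range of the control arrays and 2 above it. Among these genes 13 changed more steeply in PI than in control mucosa by the test of the difference.

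The genes of collagen fibrils fell less uniformly. Of 16 measured, 10 fell and 6 were not called (median log2 change -0.61). Col5a3, a minor chain of type V collagen that starts fibrils, had signals of 7.66, 7.88, 7.86, 8.26 and 7.80 at 14 d PI, against 10.11, 10.08, 10.65, 10.29 and 10.40 at 3 d PI. All 14 d PI arrays were lower (5.32-fold, log2 change -2.41, adjusted p = 8.01e-09). Col12a1 (log2 change -1.44), Col5a2 (-1.22) and Col6a3 (-1.08) followed, with adjusted p-values of 1.09e-06, 4.51e-06 and 3.91e-06. The main chains of type I and type III collagen changed by -0.89 (Col1a1), -0.63 (Col1a2) and -0.29 (Col3a1), each of them called, while the small proteoglycans Dcn (-0.08) and Lum (-0.16) were not called. Col3a1, at 14.08 to 14.54, and Col1a2, at 13.50 to 14.43, lay near the highest signal of the series (14.74). Whether this ceiling limited their change was not tested.

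Enzymes that modify, process and cross-link collagen fell with few exceptions, 14 of 18 measured, with none higher (median log2 change -0.97). Loxl2, a lysyl oxidase that forms cross-links between collagen chains, had signals of 7.55, 7.12, 7.15, 6.71 and 7.10 at 14 d PI, against 9.42, 9.39, 9.56, 9.51 and 10.10 at 3 d PI. The groups did not overlap, and 3 d PI replicate 5 was the highest array (log2 change -2.47, adjusted p = 5.4e-08). Plod2, the lysyl hydroxylase that prepares the ends of collagen chains for cross-linking, was 5.05-fold lower at 14 d PI (log2 change -2.34, adjusted p = 8.01e-09). P4ha3, a subunit of prolyl hydroxylase, changed by -2.04 and Pcolce, which speeds removal of the procollagen C-terminal part, by -1.55.

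Proteins of elastic fibers went both ways, 5 of 14 higher and 5 lower at 14 d PI (median log2 change 0.18). Eln, the gene of elastin itself, had signals of 11.46, 11.38, 12.21, 12.28 and 12.14 at 14 d PI, against 10.58, 10.66, 10.48, 10.47 and 10.44 at 3 d PI. Every 14 d PI array was above every 3 d PI array, with replicates 1 and 2 nearest to them (2.57-fold, log2 change 1.36, adjusted p = 1.81e-05). Ltbp4, which binds fibulins and is needed for elastic fiber assembly, had signals of 12.20, 12.12, 12.38, 12.51 and 12.08 at 14 d PI, against 10.67, 10.75, 10.63, 10.47 and 10.56 at 3 d PI. This was a 3.12-fold difference (log2 change 1.64, adjusted p = 5.85e-08). Mfap2, a microfibril glycoprotein, was also higher (log2 change 1.33, adjusted p = 0.000283), whereas the fetal fibrillin Fbn2 was lower (-1.35, adjusted p = 0.000125).

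The basement membrane list was likewise split, with 4 of 17 genes higher, 6 lower and a median change of -0.01. The type IV collagen chain Col4a5 (log2 change 1.18, adjusted p = 3.46e-06) and the muscle and nerve laminin chain Lama2 (1.02, adjusted p = 5.35e-05) rose, while Nid2, nidogen-2 (-1.62, adjusted p = 1.99e-07), and Col18a1 (-0.91, adjusted p = 9.71e-06) fell. Among 13 genes of hyaluronan and small proteoglycans, 7 fell and 2 rose, and 5 to 6 fell without single arrays. The falls included Hmmr, a hyaluronan receptor that also acts on the mitotic spindle (log2 change -1.88), Aspn, asporin (-1.26), and Has2, the main hyaluronan synthase of fibroblasts (-1.20), and Ecm2 rose (1.04). Their adjusted p-values were 6.19e-08, 0.000224, 5.3e-07 and 3.42e-05.

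Matrix proteases and their inhibitors fell in 17 of 26 cases (median log2 change -0.84). Mmp13, an interstitial collagenase, had signals of 5.72, 7.04, 4.80, 4.95 and 4.48 at 14 d PI, against 8.57, 9.47, 8.35, 8.52 and 7.44 at 3 d PI. The groups did not overlap, although 14 d PI replicate 2 came near 3 d PI replicate 5 (8.42-fold lower, log2 change -3.07, adjusted p = 0.000337). Mmp7, matrilysin of epithelium (-2.63, adjusted p = 8.78e-05), Adamts4, which cleaves versican and aggrecan (-2.49, adjusted p = 8.01e-09), and the inhibitor Timp1 (-2.29, adjusted p = 5.98e-06) also fell. The 2 members that rose were also inhibitors, Timp4 (log2 change 1.30) and Timp3 (0.78). Of 15 myofibroblast genes, 8 fell and 1 rose. Tagln, an actin-binding protein of contractile cells, changed by -1.68 (adjusted p = 4.33e-06) and Cald1 by -1.02 (adjusted p = 0.00324), and Lmod1 rose by 0.88 (adjusted p = 0.000841). Tpm2, a tropomyosin, was called lower by its main probe set (-1.04), but its other probe set was called higher (0.46), so its direction was not settled.

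Genes of cell division fell almost without exception. Of 27 measured, 25 fell, 1 was not called (Cdc20, log2 change -0.24) and 1 was higher (Aurkb, 0.58, a call lost without any one of 8 of the 10 arrays), with a median of -1.42. Cdk1, the kinase that drives entry into mitosis, had signals of 8.29, 8.65, 8.62, 7.95 and 8.54 at 14 d PI, against 10.48, 10.56, 10.44, 10.71 and 10.25 at 3 d PI. All 14 d PI arrays were lower, replicate 4 most of all (4.22-fold, log2 change -2.08, adjusted p = 6.16e-06). Ccna2, the cyclin of S phase and early mitosis, had signals of 7.26, 7.39, 7.57, 6.71 and 7.52 at 14 d PI, against 9.39, 9.23, 9.28, 9.55 and 9.34 at 3 d PI. It was 4.19-fold lower, again lowest in 14 d PI replicate 4 (log2 change -2.07, adjusted p = 7.67e-08). The spindle checkpoint kinase Ttk (-1.87) and the kinesin Kif20a, which acts in the final separation of daughter cells (-1.82), completed the leading 4. DNA replication genes showed the same direction in 22 of 24 cases with none higher, but with smaller changes (median log2 change -0.79). They were led by Uhrf1, which helps copy DNA methylation (-1.67, adjusted p = 9.31e-08), thymidine kinase Tk1 (-1.58, adjusted p = 4.36e-05) and the helicase subunits Mcm6 (-1.37) and Mcm5 (-1.23). The mean level of the cell division list was 7.59 to 8.11 at 14 d PI and 9.16 to 9.35 at 3 d PI. Control mucosa had 7.43 to 7.68 at 14 d and 7.44 to 8.0 at 3 d. The change in PI mucosa differed from that in control mucosa for 20 of the 27 genes.

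Promoters of cell division genes are known to carry 2 elements, the cell cycle genes homology region (CHR, letters TTTGAA) and the CCAAT box bound by NF-Y. Of the 27 measured cell division genes, 23 matched a promoter by symbol. Both elements were sought on both strands in the RefSeq promoter sequences of the GRCr8 build, 250 bases before to 50 after each gene's start. The letters TTTGAA were found in 16 of 23 promoters of measured cell division genes (69.6%), beside 18.1% of all 27457 promoters and 12.3% of those of measured genes. CCAAT was found in 18 of 23 (78.3%), beside 37.7% of all, and both in 14 of 23 (60.9%), beside 7.25% of all. In the promoters of 22 DNA replication genes, TTTGAA was found in 1 (4.55%) and CCAAT in 12 (54.5%). A match of letters is a description of the sequence, not evidence that a factor binds there. The following stretches of 70 bases before the start, written 5′ to 3′ along the gene, are shown because they hold both sets of letters in genes that fell. Capitals mark TTTGAA or its reverse complement TTCAAA, and CCAAT or its reverse complement ATTGG. In Mki67 a TTTGAA and an ATTGG overlap. They lie at chr20:19265221-19265290 (plus strand) for Cdk1, chr8:79981690-79981759 (minus strand) for Ccnb2, chr10:84473094-84473163 (minus strand) for Top2a, chr1:143659411-143659480 (plus strand) for Prc1 and chr1:199952666-199952735 (minus strand) for Mki67.
Cdk1: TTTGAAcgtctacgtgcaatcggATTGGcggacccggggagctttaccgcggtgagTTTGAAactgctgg
Ccnb2: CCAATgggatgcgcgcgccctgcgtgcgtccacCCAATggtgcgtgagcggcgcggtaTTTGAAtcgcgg
Top2a: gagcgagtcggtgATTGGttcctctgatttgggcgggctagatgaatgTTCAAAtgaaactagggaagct
Prc1: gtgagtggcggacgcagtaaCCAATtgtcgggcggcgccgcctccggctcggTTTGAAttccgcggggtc
Mki67: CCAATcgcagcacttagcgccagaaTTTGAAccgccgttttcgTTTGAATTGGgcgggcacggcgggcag
Beside these letters, the log2 change was -2.08 for Cdk1, -1.64 for the mitotic cyclin Ccnb2, -1.40 for the topoisomerase Top2a, -1.42 for the spindle midzone protein Prc1 and -1.37 for the proliferation marker Mki67. Cdc20, which was not called, held the same letters.

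Most neutrophil genes and a part of the genes of acute inflammation fell, and for S100a8, S100a9 and Ccl7 the array 3 d PI replicate 5 lay away from the rest of its group. S100a8, a calcium-binding protein abundant in neutrophils, had signals of 6.20, 6.54, 6.90, 5.89 and 6.62 at 14 d PI, against 10.37, 9.40, 10.28, 9.86 and 6.93 at 3 d PI. Replicates 1 to 4 of 3 d PI lay at or above 9.40 and replicate 5 lay just above the 14 d PI range (7.67-fold lower at 14 d PI, log2 change -2.94, adjusted p = 0.00132). Its partner S100a9 changed by -2.55 with overlapping groups (adjusted p = 0.00829), Csf3r, the receptor of the granulocyte growth factor G-CSF, by -2.41 (adjusted p = 0.000115) and Mmp9 by -1.07 (adjusted p = 0.00278). In all, 7 of 9 neutrophil genes fell and none rose (median log2 change -0.74), and 5 to 7 fell without single arrays. Averaged over these 9, signals were 6.41 to 6.93 at 14 d PI and 7.82 to 8.13 on 3 d PI replicates 1 to 4, but 6.88 on replicate 5. Control mucosa had 6.44 to 6.73 at 14 d and 6.49 to 7.20 at 3 d. The change in PI mucosa differed from that in control mucosa for 1 of the 9 genes.

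Of 22 genes of acute inflammation, 10 fell, 12 were not called and none rose. Without single arrays 8 to 13 fell, with 13 reached without 3 d PI replicate 5. The change in PI mucosa differed from that in control mucosa for 2 of the 22 genes. Il1rl1, the receptor of interleukin-33, had signals of 5.26, 5.21, 5.12, 4.94 and 5.47 at 14 d PI, against 7.47, 7.18, 7.14, 8.52 and 7.76 at 3 d PI. The groups did not overlap (5.32-fold lower, log2 change -2.41, adjusted p = 5.47e-07), but a second, dimmer probe set of the gene was not called (-0.16). The cytokine Il6 changed by -1.91 (adjusted p = 4.19e-05), the monocyte chemokine Ccl7 by -1.84 (adjusted p = 0.000777) and Il1b by -1.79 (adjusted p = 0.00915), the last 2 with overlapping groups. Outside this list, the chemokine Cxcl6 had signals of 6.60, 6.44, 6.98, 5.41 and 6.63 at 14 d PI, against 10.31, 9.03, 9.65, 9.34 and 8.23 at 3 d PI. It was 7.46-fold lower without overlap (log2 change -2.90, adjusted p = 0.00011). Il24, a cytokine of the interleukin-10 family, was 6.67-fold lower (log2 change -2.74, adjusted p = 9.28e-07).

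Hmox1, the heme oxygenase that degrades heme and rises under oxidative stress, had signals of 9.22, 9.53, 9.76, 9.38 and 9.78 at 14 d PI, against 12.31, 12.01, 12.53, 12.78 and 12.15 at 3 d PI. All 14 d PI arrays were lower (7.07-fold, log2 change -2.82, adjusted p = 2.2e-08). The protease inhibitor Serpina3n, an acute phase protein, had signals of 8.95, 8.16, 9.06, 8.58 and 8.09 at 14 d PI, against 11.90, 11.86, 11.77, 11.56 and 11.55 at 3 d PI. It was 8.93-fold lower at 14 d PI (log2 change -3.16, adjusted p = 8.12e-09). The 14 d PI arrays also lay below those of control mucosa, which had 9.95 to 10.75 at 14 d and 9.86 to 11.58 at 3 d. That difference from control was not tested here.

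Macrophage genes fell in 10 of 20 cases and 1 rose (median log2 change -0.62). Besides Spp1, the falls included the inhibitory antibody receptor Fcgr2b (-1.24, adjusted p = 0.000318) and Ms4a7 (-1.11, adjusted p = 0.0262, groups overlapping). The receptors Mrc1 (-0.99, adjusted p = 0.000254) and Cd163 (-0.82, adjusted p = 0.0028) fell too, while the arginase Arg1 rose (log2 change 1.08, adjusted p = 0.0007). The C1q chains C1qa (-0.10), C1qb (-0.30) and C1qc (0.00), made largely by resident macrophages, were not called. The difference between PI and control change was called for none of the 20 genes, but for 4 without 3 d control replicate 2 (1 higher and 3 lower), and the median control change was -0.32. Of 15 complement genes, 6 fell and 1 rose, a rise not called without any one of 8 of the 10 arrays. C3ar1 (-1.11, adjusted p = 6.2e-05) and C5ar1 (-0.98, adjusted p = 0.00669) encode receptors of complement fragments, Clu (-1.11, adjusted p = 1.89e-05) encodes clusterin and Cfi (-0.66, adjusted p = 0.00357) factor I. A dimmer probe set of Clu was not called (-0.39).

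Lymphocyte genes showed no common direction, with 3 of 15 lower, 1 higher and a median of -0.09. Their called share was near the 30.6% of all genes. Cd8a had a log2 change of -1.97 (adjusted p = 1.61e-06) with no overlap between groups, while the T cell receptor components Cd3e (-0.10), Cd3d (-0.14) and Cd3g (0.09) were not called. Cd2 (-0.61, adjusted p = 0.00165) and Cd5 (-0.87, adjusted p = 0.031) were lower, Cd5 with overlapping groups and a call lost under 8 alternatives. Jchain, which joins antibody units secreted by plasma cells, had signals of 10.79, 10.53, 11.67, 11.27 and 11.51 at 14 d PI, against 9.74, 8.86, 7.98, 9.43 and 9.24 at 3 d PI. Every 14 d PI array was above every 3 d PI array (4.30-fold, log2 change 2.10, adjusted p = 0.000867).

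Of 9 genes of MHC class II presentation, 4 fell and none rose. RT1-DMb (log2 change -0.68), RT1-Bb (-0.56), RT1-Da (-0.48) and the class II transactivator Ciita (-0.47) had adjusted p-values of 0.0286, 0.0251, 0.0273 and 0.000261, and without single arrays between 1 and 5 genes of the list were called. Interferon-responsive genes varied widely between arrays of one group. Of 18, 4 were higher and 1 lower, a called share near the 30.6% of all genes, and between 1 and 8 were higher without single arrays. Mx1, an antiviral GTPase, was higher without overlap (log2 change 1.74, adjusted p = 3.09e-05), Mx2 (1.10, adjusted p = 0.0286) and Cxcl11 (0.87, adjusted p = 0.0376) with overlap, and the guanylate-binding protein Gbp2 was lower (-0.93, adjusted p = 4.05e-05). The calls for Mx2 and Cxcl11 were each lost under 9 alternatives, and a dimmer probe set of Mx2 was not called (0.11). Mast cell proteases were scattered as well. Cma1, chymase (log2 change 1.05, adjusted p = 0.0284), and Tpsab1, tryptase (0.49, adjusted p = 0.0399), were the 2 of 13 genes called. This share was near the 14.1% of all genes called higher. With some arrays left out no gene of the list was called, and the median control change was 0.71 against 0.64 in PI mucosa.

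**Figure D2:**
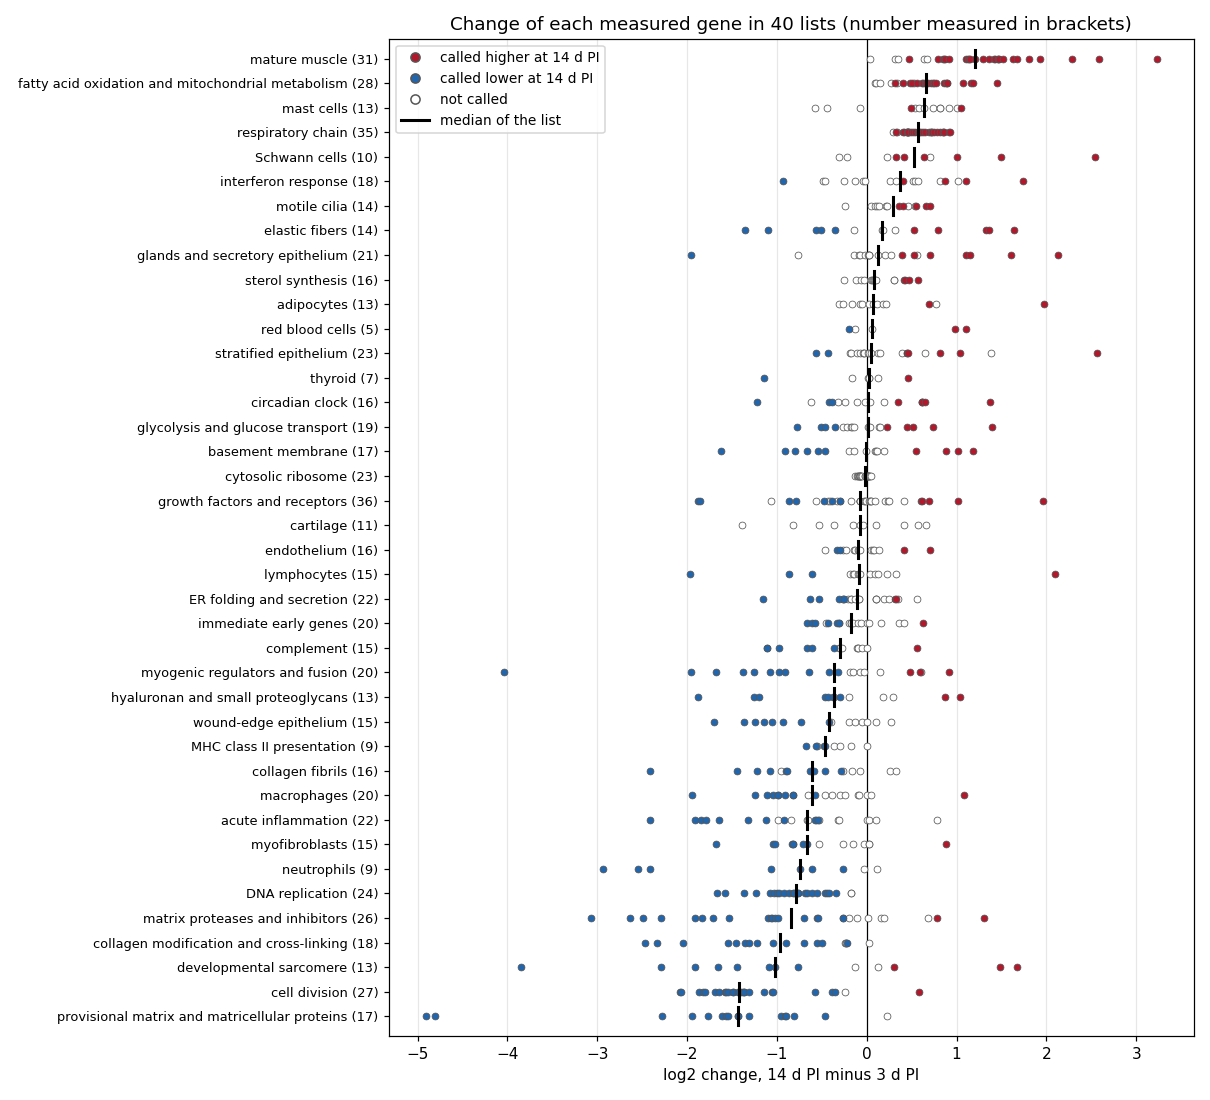
Log2 change at 14 d PI minus 3 d PI (horizontal axis) of every measured gene in 40 gene lists, ordered by the list's median, with the number of genes measured in brackets. Red points were called higher and blue points lower at 14 d PI, open points were not called and black bars are medians, which ran between -1.43 for provisional matrix and 1.21 for mature muscle.

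Several genes of muscle regeneration fell steeply while genes of mature muscle rose. Mymk, a membrane protein that fuses myoblasts into fibers, had signals of 6.64, 6.27, 6.02, 6.28 and 6.36 at 14 d PI, against 10.08, 10.90, 10.66, 10.55 and 9.58 at 3 d PI. It was 16.5-fold lower at 14 d PI with wide separation of the groups (log2 change -4.04, adjusted p = 5.21e-09). All 14 d PI arrays still lay above the 6 control arrays of these times, which had 4.81 to 5.22. Among 20 myogenic regulators and fusion genes, 11 fell and 3 rose, and without single arrays 9 to 10 fell and 2 to 3 rose. Chrng, the acetylcholine receptor subunit of fetal muscle, changed by -1.96 (adjusted p = 5.44e-07), Chrna1 by -1.68 (adjusted p = 1.77e-06) and the regulator Myog by -1.38 (adjusted p = 9.79e-05). The adult receptor subunit Chrne, which takes the place of Chrng, was one of the 3 that rose (log2 change 0.92), with Mef2c (0.59) and Chrnb1 (0.48).

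Contractile proteins of developing muscle fell in 8 of 13 cases and rose in 3 (median log2 change -1.02). Tnnt2, the troponin T of heart and embryonic muscle, had signals of 7.43, 7.20, 7.09, 7.30 and 7.46 at 14 d PI, against 11.30, 11.44, 11.38, 11.36 and 10.26 at 3 d PI. Replicate 5 was the lowest 3 d PI array, and the signal was 14.4-fold lower at 14 d PI (log2 change -3.85, adjusted p = 2.43e-08). The gene's other probe set averaged 4.51 at 14 d PI and 4.54 at 3 d PI and was not called. Myh3, the embryonic myosin heavy chain, had signals of 10.68, 10.26, 9.73, 9.94 and 10.00 at 14 d PI, against 12.38, 12.71, 12.63, 12.17 and 12.16 at 3 d PI. It was 4.88-fold lower at 14 d PI (log2 change -2.29, adjusted p = 1.15e-06), yet all 14 d PI arrays were above the 14 d control arrays, at 6.15 to 6.51, and the 3 d control arrays, at 6.02 to 6.28. Tnnc1, the troponin C of slow and embryonic muscle, also fell (-1.91, adjusted p = 0.000254). The 3 that rose were Myh8, Nrap, a protein of myofibril assembly (log2 change 1.48), and skeletal actin Acta1 (0.30). Myh8, the perinatal myosin heavy chain, had signals of 12.43, 12.29, 11.70, 12.55 and 12 at 14 d PI, against 10.92, 10.65, 10.82, 9.91 and 10.30 at 3 d PI. It was 3.19-fold higher at 14 d PI (log2 change 1.67, adjusted p = 1.33e-05).

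Mature muscle genes rose, 26 of 31 with none lower and a median log2 change of 1.21, beside 14.1% of all genes that rose. Myh2, whose myosin heavy chain serves type IIA fibers, which are fast and oxidative, had signals of 12.48, 12.57, 12.26, 12.52 and 12 at 14 d PI, against 9.26, 8.87, 9.89, 8.24 and 9.44 at 3 d PI. This was the largest rise of any gene with groups apart (9.38-fold, log2 change 3.23, adjusted p = 4.13e-07), and the 14 d PI arrays also lay above control arrays, at 10.79 to 10.92 for 14 d control and 10.36 to 10.97 for 3 d control. Myl2, the regulatory light chain of slow fibers, rose by 2.59 (adjusted p = 4.3e-06) by one probe set, while another probe set, dim in both groups, was not called (0.13). Fabp3, a fatty acid carrier (2.29, adjusted p = 1.17e-05), and the mitochondrial creatine kinase Ckmt2 (1.93, adjusted p = 8.07e-07) completed the leading 4. Myh1 (0.64), Myh7 (0.35), Actn3 (0.67), Ampd1 (0.31) and Mylk2 (0.04) were not called.

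Several of the other largest rises belonged to striated muscle although no list held them. Perm1, a muscle regulator of mitochondrial genes, had signals of 10.15, 10.40, 9.81, 10.47 and 9.60 at 14 d PI, against 7.83, 7.0, 7.75, 6.70 and 7.32 at 3 d PI. All 14 d PI arrays were higher (6.80-fold, log2 change 2.77, adjusted p = 1.12e-06). Smtnl1 (log2 change 2.66, adjusted p = 3.86e-06), the muscle form of a ribosomal protein Rpl3l (2.56, adjusted p = 1.21e-05), the Z-disc protein Myoz3 (2.53, adjusted p = 1.87e-05) and Myh13, the myosin of extraocular and laryngeal muscle (2.74, adjusted p = 0.000589), were higher without overlap. The mean level of the mature muscle list was 11.17 to 11.70 at 14 d PI and 9.79 to 10.66 at 3 d PI. In control mucosa it was 11.28 to 11.53 at 14 d, and at 3 d 11.20 and 11.10 on replicates 1 and 3 but 10.26 on replicate 2. The median control change of the list was 0.43, and the change differed between PI and control mucosa for 7 of 31 genes, or for 17 of 31 without 3 d control replicate 2. How much muscle each dissection took up was not tested.

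**Figure D3:**
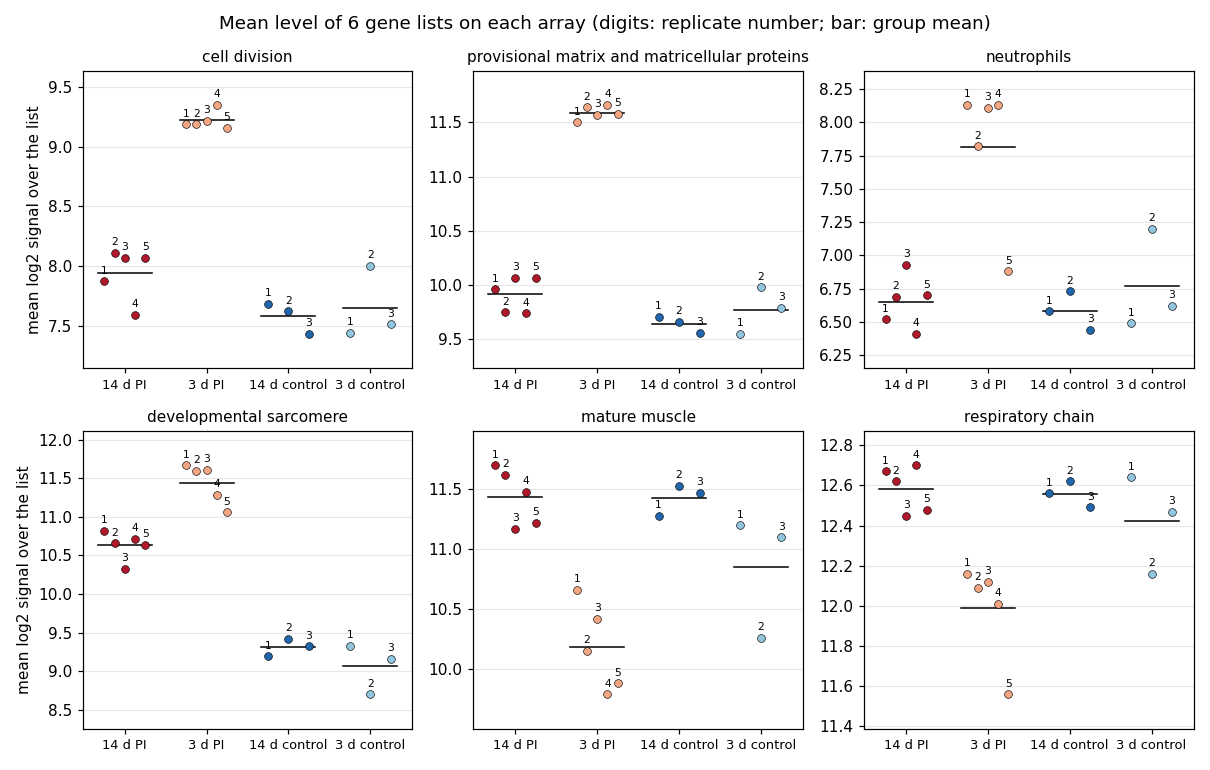
Mean log2 signal (vertical axes, each panel with its own range) over the measured genes of 6 lists on each array of 14 d PI, 3 d PI, 14 d control and 3 d control mucosa. Points are arrays with their replicate number and bars are group means. Neutrophil genes were at 6.88 on 3 d PI replicate 5 against 7.82 to 8.13 on the other 3 d PI arrays, and mature muscle genes at 10.26 on 3 d control replicate 2.

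The E-box CAGCTG, a palindromic core bound by myogenic regulators, was sought in the same promoter windows. It was found in 6 of 14 promoters of myogenic regulators and fusion genes (42.9%) and in 4 of 8 of the developmental sarcomere list (50.0%), beside 15.1% of all promoters. It was found in 13 of 26 promoters of mature muscle genes (50.0%) too, a list that rose. The stretches of 70 bases below, with the E-box in capitals, are shown for 3 subunits of the acetylcholine receptor, the shared Chrna1 and the fetal Chrng, which fell, and the adult Chrne, which rose. They lie at chr3:78877359-78877428 (minus strand) for Chrna1, chr9:95325914-95325983 (plus strand) for Chrng and chr10:55834201-55834270 (minus strand) for Chrne.
Chrna1: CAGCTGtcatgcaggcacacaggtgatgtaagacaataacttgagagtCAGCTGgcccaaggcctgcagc
Chrng: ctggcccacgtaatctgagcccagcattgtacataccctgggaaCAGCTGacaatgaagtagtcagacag
Chrne: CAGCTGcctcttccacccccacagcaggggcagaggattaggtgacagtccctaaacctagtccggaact
Chrna1 held 2 copies and the others 1 copy each in these stretches, beside log2 changes of -1.68, -1.96 and 0.92.

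Mitochondrial genes rose with small, even steps. Of 35 genes of the respiratory chain, 29 rose and none fell, with a median log2 change of 0.57 and all 35 values above 0. Ndufa9 (0.93, adjusted p = 8.83e-05), Ndufs3 (0.91, adjusted p = 0.00201) and Ndufb5 (0.85, adjusted p = 0.00223) encode parts of complex I and Cyc1 (0.86, adjusted p = 0.000236) cytochrome c1 of complex III. The mean level of the list was 12.45 to 12.70 at 14 d PI and 11.56 to 12.16 at 3 d PI, lowest on 3 d PI replicate 5. In control mucosa it was 12.49 to 12.62 at 14 d and 12.16 to 12.64 at 3 d. The difference between the PI and control change was called for none of the 35, and for 3 without 3 d control replicate 2. Of 28 genes of fatty acid oxidation and mitochondrial metabolism, 22 rose and none fell (median log2 change 0.66). Acadm, the medium-chain acyl-CoA dehydrogenase, had signals of 12.89, 12.88, 12.62, 12.85 and 12.52 at 14 d PI, against 11.55, 11.12, 11.43, 11.03 and 11.35 at 3 d PI. The groups were apart (2.74-fold, log2 change 1.45, adjusted p = 2.18e-07). Ppargc1a, the coactivator of mitochondrial genes (1.18, adjusted p = 0.000841), Cpt1b, which admits fatty acids to muscle mitochondria (1.16, adjusted p = 0.000382), and Etfdh (1.07, adjusted p = 1.86e-06) rose as well. The levels of both lists and of mature muscle genes, which are rich in mitochondria, moved in the same direction between the groups, and their separate shares were not tested.

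Glycolysis genes were divided, 5 of 19 higher and 4 lower (median log2 change 0.01), with 3 higher without 14 d PI replicate 1 or 4 or 3 d PI replicate 2, 3 or 4. The muscle isoforms Pfkm (1.39, adjusted p = 0.000364) and Aldoa (0.52, adjusted p = 3.91e-05) rose, as did Pdk1 (0.74, adjusted p = 4.6e-05), and the glucose transporter Slc2a3 fell (-0.78, adjusted p = 0.00125). Another probe set of Pdk1 was not called (0.21). Of 22 genes of folding and secretion in the endoplasmic reticulum, 5 fell and 2 rose, and the called share was near the 30.6% of all genes. Kdelr3 (-1.15, adjusted p = 0.000127) and Kdelr2 (-0.53, adjusted p = 0.000204) return proteins to the endoplasmic reticulum, Sec24d (-0.63, adjusted p = 8.69e-05) carries procollagen out of it, and the chaperone Dnajb9 was slightly higher (0.32, adjusted p = 0.0453), a call lost under 9 alternatives. Without any one of 8 of the 10 arrays, no gene of this list was called higher. Of 16 sterol synthesis genes 4 rose. These were Fdft1 (0.57, adjusted p = 0.000309), the regulators Insig1 (0.47, adjusted p = 0.00381) and Srebf2 (0.42, adjusted p = 0.0235), and Hsd17b7 (0.43, adjusted p = 0.0174), of which Srebf2 and Hsd17b7 each had a dimmer probe set that was not called. None of 23 genes of the cytosolic ribosome was called, with log2 changes between -0.13 and 0.05. Rps6 was at 14.32 ± 0.07 at 14 d PI and 14.32 ± 0.08 at 3 d PI (SD, n = 5 each), and Rps23 at 14.22 ± 0.04 and 14.24 ± 0.12. Both lay near the highest signal of the series (14.74), and whether this limited their change was not tested.

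In the epithelium Krt5 and Krt14 moved apart from Krt4 and Krt13, while the keratins Krt15 (log2 change 0.13), Krt10 (0.65) and Krt1 (0.05) were not called. Krt14 (log2 change -0.57, adjusted p = 0.000751) and Krt5 (-0.43, adjusted p = 0.00209), which mark basal cells, fell without overlap. Krt4 (0.81, adjusted p = 0.00111) and Krt13 (1.04, adjusted p = 0.0412), which mark the upper layers of stratified epithelium that does not cornify, rose, Krt13 with overlapping groups and a call lost under 7 of the alternatives tried, among them leaving out 3 d PI replicate 5. Upk1a, a plaque protein of surface cells, had signals of 7.70, 8.16, 8.25, 8.55 and 7.51 at 14 d PI, against 5.10, 5.82, 5.39, 5.43 and 5.63 at 3 d PI. It was 5.89-fold higher without overlap (log2 change 2.56, adjusted p = 7.16e-07). In all, 6 of 23 genes of stratified epithelium rose and 2 fell (median log2 change 0.05), and 2 to 5 rose without single arrays. Krtdap, a protein of differentiating keratinocytes, had signals of 7.11, 9.33, 10.45, 6.10 and 9.84 at 14 d PI, against 5.69, 5.76, 5.37, 5.51 and 5.16 at 3 d PI. The groups did not overlap, but the 14 d PI arrays spanned more than 4 log2 units, and the change of 3.07 (SE 1.08, adjusted p = 0.0409) lost its call under 9 of the alternatives tried.

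Genes that keratinocytes use at a wound edge fell in 8 of 15 cases with none higher (median log2 change -0.42). Lama3, a chain of the laminin on which keratinocytes migrate, had signals of 8.70, 8.87, 8.81, 8.67 and 8.60 at 14 d PI, against 10.57, 10.24, 10.72, 10.50 and 10.12 at 3 d PI. The groups did not overlap (3.25-fold, log2 change -1.70, adjusted p = 3.22e-07). The fibronectin receptor chain Itga5 (-1.37, adjusted p = 9.53e-06), the growth factor Areg (-1.24, adjusted p = 0.00499) and the stress keratin Krt17 (-1.14, adjusted p = 0.00223) followed.

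Among genes of motile cilia, 5 of 14 rose and none fell, Dnali1 (0.70, adjusted p = 0.0255), Dnai1 (0.66, adjusted p = 0.0211), Spag16 (0.55, adjusted p = 0.0045) and Tppp3 (0.40, adjusted p = 0.00771) among them, but Foxj1, the master regulator of ciliated cells, was not called (0.09). Only 2 were called without 14 d PI replicate 4, 14 d PI replicate 5 or 3 d PI replicate 1, and 3 without 3 d PI replicate 2, 3 or 4. Dnali1 lost its call under 8 alternatives and Dnai1 under 4, and the difference from the control change was called for none of the 14. Other probe sets of Dnali1 and Spag16 were not called. Averaged over the cilia list, signals were 8.77 to 9.27 at 14 d PI and 8.47 to 9.13 at 3 d PI, against 7.99 to 8.15 in 14 d control and 7.94 to 8.14 in 3 d control, so the arrays of both PI groups lay above all control arrays. Ccno, a cyclin-like protein needed to form many cilia in a cell, had signals of 6.77, 8.28, 6.95, 6.05 and 7.16 at 14 d PI, against 9.94, 10.06, 9.67, 10.23 and 10.57 at 3 d PI. It was 8.29-fold lower at 14 d PI without overlap (log2 change -3.05, adjusted p = 2.77e-05). Of 21 gland and secretory genes, 7 rose and 1 fell. Bpifb1, a secreted host defense protein, fell (log2 change -1.96, adjusted p = 4.46e-05), while Cyp2a3 (1.61, adjusted p = 0.00487, groups overlapping) and the secretin receptor Sctr (1.15, adjusted p = 0.00181) rose. Tff2, a trefoil peptide of mucous glands, had signals of 9.90, 11.21, 10.90, 11.33 and 10.79 at 14 d PI, against 11.29, 8.81, 7.44, 7.96 and 7.99 at 3 d PI. Replicate 1 of 3 d PI lay within the 14 d PI range, and the log2 change was 2.13 (SE 0.64, adjusted p = 0.0187), a call lost without 3 d PI replicate 3 or 4. Sec14l3, a lipid transfer protein, was among the 12 largest rises (2.40, adjusted p = 2.29e-05).

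Genes of peripheral nerve sheath rose. Of 10 Schwann cell genes, 6 were higher and none lower (median log2 change 0.53). Mbp, myelin basic protein, had signals of 10.18, 10.20, 9.88, 9.99 and 9.61 at 14 d PI, against 7.85, 6.96, 7.51, 7.20 and 7.64 at 3 d PI. All 14 d PI arrays were higher (5.82-fold, log2 change 2.54, adjusted p = 1.3e-07), with 8.95 to 9.46 on 14 d control arrays and 7.71 to 8.71 on 3 d control arrays. Other probe sets of Mbp were called higher too, but by less (0.71 and 1.07), so the size of its rise depended on the probe set. Gfap (1.49, adjusted p = 0.000576), the myelin protein periaxin Prx (1.01, adjusted p = 3.91e-05) and the lineage regulator Sox10 (0.64, adjusted p = 0.00555) rose without overlap. The mean level of the list was 8.10 to 8.38 at 14 d PI, 7.50 to 7.72 at 3 d PI, 8.33 to 8.38 in 14 d control and 8.19 to 8.27 in 3 d control. The change in PI mucosa differed from that in control mucosa for 2 of the 10 genes.

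Endothelial genes were mostly not called, with 2 of 16 higher and 2 lower, shares near those of all genes (14.1% higher and 16.5% lower). Cldn5, the tight junction protein of endothelium, rose (0.70, adjusted p = 0.00215), Ptprb changed by 0.42 (adjusted p = 0.0272), Esam by -0.33 (adjusted p = 0.00624) and Angpt2 by -0.30 (adjusted p = 0.0391). The call for Angpt2 was lost under 13 alternatives and that for Ptprb under 6, and another probe set of Ptprb was not called (0.07). The red cell genes Hbb (0.98, adjusted p = 0.00108) and Alas2 (1.11, adjusted p = 0.00089) were higher at 14 d PI, and Slc4a1 was slightly lower by its main probe set (-0.20, adjusted p = 0.024) but not by the mean of its probe sets (0.04). Of 13 adipocyte genes 2 rose, a share near the 14.1% of all genes. These were Plin4 (1.97, adjusted p = 9.44e-06), which muscle also expresses, and Lpl (0.69, adjusted p = 0.00756), while the fat cell genes Adipoq (0.07) and Plin1 (0.11) were not called. Of 7 thyroid genes, Slc26a4 fell (-1.14, adjusted p = 0.00425) and Nkx2-1, which airway epithelium also expresses, rose (0.46, adjusted p = 0.00403), with Tg not called (0.03). These shares were near those of all genes. None of 11 cartilage genes was called. Chad was at 9.33 ± 1.24 at 14 d PI and 9.41 ± 1.63 at 3 d PI, and Col9a2 at 8.84 ± 0.50 and 8.43 ± 0.91 (SD, n = 5 each), so cartilage signal varied between arrays of one group by more than between the groups.

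Among growth factors and their receptors and antagonists, 5 of 36 rose (beside 14.1% of all genes) and 7 fell (beside 16.5%), shares near those of all genes. Inhba, the activin A subunit (-1.88, adjusted p = 3.22e-07), and the Wnt antagonist Sfrp2 (-1.86, adjusted p = 2.18e-06) fell. Fgfbp1, which releases fibroblast growth factors from matrix, had signals of 10.74, 10.44, 10.83, 10.98 and 11.08 at 14 d PI, against 8.88, 9.24, 8.77, 8.66 and 8.72 at 3 d PI. It was 3.89-fold higher (log2 change 1.96, adjusted p = 1.37e-05), and Igfbp2 was also higher (1.02, adjusted p = 0.000128). Phex, an endopeptidase known from bone mineralization, had signals of 9.01, 8.57, 9.03, 8.93 and 8.69 at 14 d PI, against 6.27, 6.32, 6.02, 6.14 and 6.77 at 3 d PI. The control arrays of both times lay at 8.46 to 9.01, so the 14 d PI arrays were at control level, 1 of them slightly above that range, and all 3 d PI arrays were below it (5.81-fold higher at 14 d PI, log2 change 2.54, adjusted p = 3.18e-08).

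Of 16 clock genes, 6 rose and 3 fell. Npas2 (1.37, adjusted p = 5.41e-06) and Clock (0.65, adjusted p = 0.00226), which encode partners of Bmal1, and the output factor Hlf (0.62, adjusted p = 0.00445) rose, and the repressor Bhlhe40 fell (-1.22, adjusted p = 1.52e-05). For Clock, 3 further probe sets were not called. The hour of harvest was not given in the sources used here. Of 20 immediate early genes, 6 fell and 1 rose. Junb (-0.66, adjusted p = 0.00441), Fos (-0.61, adjusted p = 0.0408) and Fosl1 (-0.58, adjusted p = 0.0134) were lower and Nr4a1 (0.63, adjusted p = 0.0346) was higher, all with overlapping groups. Fos and Nr4a1 each lost the call under 9 alternatives, and without single arrays 3 (without 3 d PI replicate 3) to 8 (without 3 d PI replicate 5) genes of the list were lower.

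The comparison of 14 d control with 3 d control asked what the same interval did in mucosa without injury. No gene was called by limma, with 760 genes at an unadjusted p under 0.05 and a smallest adjusted p of 0.819, and the lognormal-normal model called 10. The middle 90% of genes changed by between -0.28 and 0.29 in control mucosa, against -0.75 and 0.67 in PI mucosa, and the median SE was 0.11 in both. The control fit rested on 8 arrays against 15 for PI mucosa, so its power was lower. The largest control change was 2.54, for Actn3, and was not called, so the absence of calls does not show that no gene changed. The median change in control mucosa was 0.71 over mast cell genes and 0.43 over mature muscle genes.

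The test of the difference between the PI change and the control change called 1139 genes, 361 with a more positive and 778 with a more negative change in PI mucosa. The most negative differences were those of Tnn (-4.80, adjusted p = 1.12e-07), Tnc (-4.74, adjusted p = 7.53e-08), Mymk (-4.18, adjusted p = 2.13e-08) and Tnnt2 (-3.77, adjusted p = 2.41e-06), for which the control change lay between -0.17 and 0.13. The most positive were those of Tff2 (3.58, adjusted p = 0.0182), Myh2 (2.98, adjusted p = 8.68e-05), Jchain (2.96, adjusted p = 0.0034) and Upk1a (2.51, adjusted p = 8.75e-05). The call for Tff2, difference of the PI and control change, was lost with the replicate number as a block (adjusted p = 0.0549) and without 14 d control replicate 2 (adjusted p = 0.0555). For Tff2 and Jchain a part of the difference came from the control arrays. Tff2 was at 10.68, 10.32 and 11.22 on 14 d control arrays and at 12.22, 12.22 and 12.12 on 3 d control arrays, and Jchain at 9.49, 9.53 and 8.80 against 10.71, 9.70 and 9.99. Both had control changes below 0 (-1.45 and -0.86) that were not called.

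**Figure D4:**
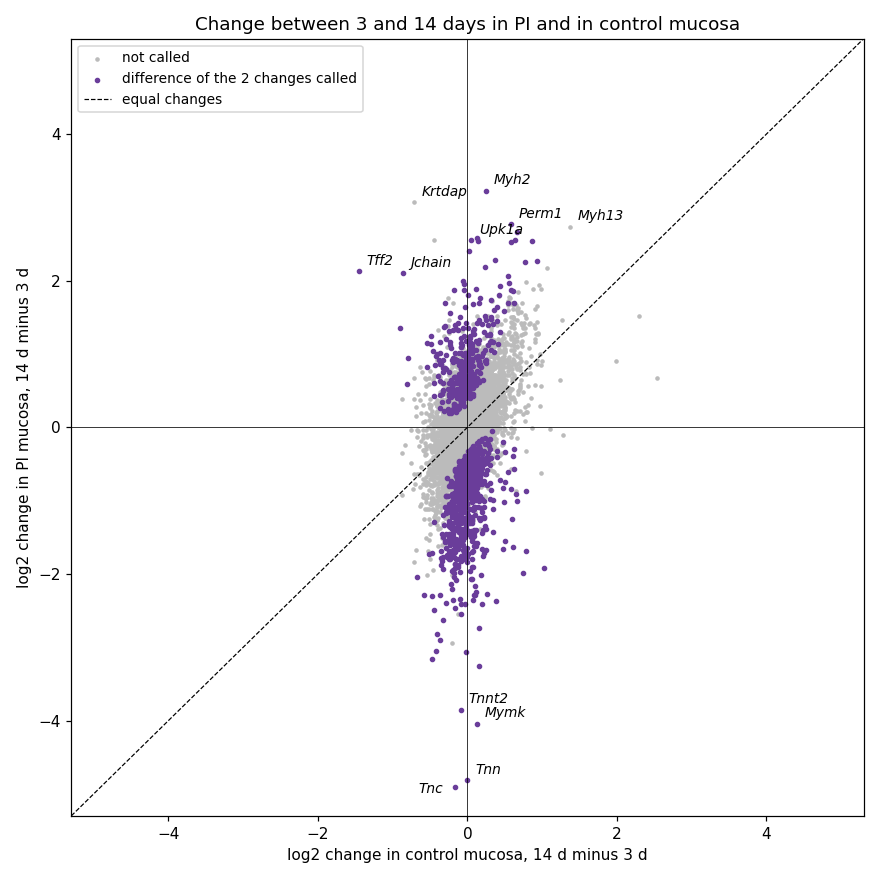
Log2 change between 14 d and 3 d in PI mucosa (vertical axis, 5 against 5 arrays) against that in control mucosa (horizontal axis, 3 against 3 arrays) for 14217 genes. Purple points are the 1139 genes whose 2 changes differed and the dashed line marks equal changes. Tnc lay at -4.91 in PI and -0.17 in control mucosa, and Myh13, at 2.74 and 1.37, was not called for a difference.

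Levels on the 5 arrays labelled 60 d PI are given beside those of the earlier times, with no test. The study's methods describe fewer 60 d PI arrays than the labels do, and more than the 2 arrays labelled 60 d control. Whether an array was mislabelled was not settled, and the labels were followed. The same 5 arrays entered the spread behind each SE and adjusted p of the main contrast. Without them 5427 genes were called, against 4349. At 3, 14 and 60 d PI, Tnc averaged 13.38, 8.47 and 7.63, Mymk 10.35, 6.31 and 5.34, and Cdk1 10.49, 8.41 and 8.44. Myh3 averaged 12.41, 10.12 and 7.26 and Myh2 9.14, 12.37 and 12.38 in the same order. Genes that were highest at 14 d PI among the 3 means were Eln (10.53, 11.89 and 9.73), Myh8 (10.52, 12.19 and 10.37), Mbp (7.43, 9.97 and 8.86) and Fgfbp1 (8.85, 10.81 and 10.26). Serpina3n (11.73, 8.57 and 9.67) and S100a8 (9.37, 6.43 and 7.89) were lowest at 14 d PI, and the 60 d PI arrays of S100a8 ranged between 6.34 and 9.20. Jchain had a higher mean at each later time (9.05, 11.15 and 12).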

How the data were processed

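RNA from pooled VF mucosae was measured on a rat expression array made by Affymetrix. The deposited log2 values were made by the authors with RMA (background correction, quantile normalization and probe summary), as the labels' processing notes name RMA and affy. Their versions are not given in the sources used here. Quantile normalization forces equal array distributions, so a global shift would not show. Array number, 5 per group, limits the precision.

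Of 31099 probe sets, 57 control sets were left out. Names came from GEO's platform annotation, updated by gene number. One symbol was given for 20832 sets, which gave 14217 genes, 436 had several and 9831 none. For genes with several sets, the set of median mean intensity was used. A linear model over the 15 PI arrays was fitted with limma 3.58.1 in R 4.3.3 (lmFit and eBayes), and every adjusted p is from limma with Benjamini-Hochberg adjustment over all genes. The control change came from a fit over the 8 control arrays, and its difference from the PI change from a fit over all 23 mucosa arrays. The main fit and the lognormal-normal model were tested on simulated data. Pools of a group are separate samples, and p-values measure the spread between pools. Figures were drawn with matplotlib 3.10.9.

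Genes named were, among called genes with groups that did not overlap, the 12 largest rises and 12 largest falls, up to 4 called members of each of 40 lists with the largest change (2 of highest mean signal where none was called) and the 4 most positive and 4 most negative called differences. Members and lists were chosen with earlier results of these data known, so no list count is independent evidence. Other genes, such as Aurkb, Cdc20, Ccn5, Timp3, Timp4, Chrne, the C1q chains, Cd3e and the promoters shown, were chosen after their values were seen. Alternatives were probe set choice, array centring, repeated quantile normalization, array weights, a dim-probe filter, other sets of arrays, the replicate block, a lognormal-normal model written here after the kind the study's methods name and leaving out each array. Arrays of other groups of the series were not analysed here.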

Additional observations from a re-analysis of the deposited data

Results flagged for a closer look

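Single arrays stood far from the other 4 of their group for 30 of 324 gene and group pairs, by Dixon's gap against the group's range, where chance marks about 1 in 20 groups. Of the 30, 20 were on 3 d PI replicate 5. That array lay below the range of its group in log2 signal for Cald1 (8.68 against 9.63 to 9.81), Ccl7 (8.02 against 9.88 to 10.25), Fosl1 (6.41 against 7.13 to 7.36), Hbb (11.88 against 12.42 to 12.64) and Kdelr3 (11 against 11.32 to 11.42). It also lay below for Krt13 (10.33 against 11.96 to 12.25), Ms4a7 (8.37 against 9.63 to 9.99), Myog (10.34 against 11.19 to 11.27), Ndufb5 (11.12 against 11.89 to 12.16) and Ndufs3 (10.50 against 11.21 to 11.33). The same held for S100a8 (6.93 against 9.40 to 10.37), S100a9 (7.50 against 10.83 to 11.54), Slc2a3 (7.49 against 7.90 to 8.05), Tagln (11.73 against 12.17 to 12.33) and Timp1 (11.99 against 12.92 to 13.18). The last of the low values were those of Tnnc1 (10.02 against 11.42 to 11.67), Tnnt2 (10.26 against 11.30 to 11.44) and Tpm2 (11.97 against 12.52 to 12.73). That array lay above the range of its group in log2 signal for Dnali1 (10.13 against 9.03 to 9.28) and Loxl2 (10.10 against 9.39 to 9.56).

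On 14 d PI replicate 1 the signal stood apart for Krt14 (12.78 against 13.04 to 13.09). On 14 d PI replicate 3 the signal stood apart for Col4a5 (12.33 against 12.06 to 12.12). On 14 d PI replicate 4 the signal stood apart for Hmmr (6.66 against 7.09 to 7.20) and Lmod1 (8.35 against 7.15 to 7.46). On 14 d PI replicate 5 the signal stood apart for Aldoa (14.21 against 14.38 to 14.40), Bpifb1 (12.09 against 11.33 to 11.54) and Pdk1 (9.40 against 9.54 to 9.55). On 3 d PI replicate 1 the signal stood apart for C3ar1 (7.36 against 8.0 to 8.25) and Prx (7.66 against 7.41 to 7.46). On 3 d PI replicate 2 the signal stood apart for Tppp3 (12.52 against 12.28 to 12.32).

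The change between 14 d and 3 d differed between PI and control mucosa, by the test of the difference itself, in these 8 genes with the most extreme values. The differences (PI change minus control change, log2) were 3.58 for Tff2 (not called with the replicate number as a block), 2.98 for Myh2, 2.96 for Jchain, 2.51 for Upk1a, -4.80 for Tnn, -4.74 for Tnc, -4.18 for Mymk and -3.77 for Tnnt2.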

How the results depend on the processing

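The main fit called 4349 genes and the other settings 3490 to 5427, the highest with only the 10 arrays compared, except that array weights called 7301, and a fold of at least 2 beside the adjusted p called 697. The lognormal-normal model called 10 genes between the controls (limma 0), and array weights 5063 genes for the difference (1139 without, and 1597 with only the arrays compared). Without single arrays the main count ran between 3556 and 4520 and the difference between 749 (without 3 d control replicate 3) and 1378 (without 3 d control replicate 2), and the control comparison gave 0 in limma. Slc4a1 reversed under the mean of its probe sets, 0.04 against -0.20. The cause was not tested. Of 158 named genes called, 133 kept the call in every one of the 21 settings that tested them and 25 did not. The dim-probe filter left 143 of the 162 named genes to test. Replicate numbers were not treated as pairs in the main fits. Deviations of same-numbered PI arrays correlated between -0.16 and 0.13. Same-numbered control arrays correlated at -0.19, 0.16 and 0.35, against -0.37 to 0.34 for control arrays of unlike number. With a replicate block the counts were 4764, 0 and 1117, and the call for Tff2, difference of PI and control change, was lost (adjusted p = 0.0549). The lognormal-normal model for controls, the centred difference and the fit without both arrays that stood apart were chosen after seeing the data. Arrays near background limit dim genes: without the dimmest, 3490 of 9952 were called.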
